A study of Mus musculus with 6 samples.

Results

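In mouse CD8+ T cells, 37 of the 11922 genes in the count table were near silent with vehicle and clearly counted with AOA (aminooxyacetic acid), and 36 of them lay outside the cell cycle lists. The genes were chosen by their CPM (the count of a gene per 1000000 counts of its library), with less than 1.5 CPM in each of the 3 vehicle libraries and at least 3 CPM in each of the 3 AOA libraries. The difference between the groups is therefore how these genes were selected, and their values below are a description with no test. What they encode was not used in the choice. In classes made by hand after values had been seen, with no count over other genes to set beside them, there were 6 secreted and matrix proteins, 7 adhesion and junction proteins, 7 proteins of microtubules, neurons and membranes, 5 signalling and transcription proteins, 5 metabolic, transport or mitochondrial proteins, 3 redox enzymes, 1 replication protein and 3 others.

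CD8+ T cells were magnetically sorted from the spleens of C57BL6/J mice and activated for 72 hours with beads carrying anti-CD3 and anti-CD28, then expanded for 4 days, with recombinant human IL-2 at 100 units per ml throughout. Cultures received water as vehicle or 0.25 mM AOA over all 7 days, and every culture of both groups was activated and given IL-2. Mice 1, 2 and 3 each gave 1 vehicle and 1 AOA library of bulk RNA, so the design has 3 libraries per group. No treatment was given to the mice themselves, and age and sex are not stated for the individual donors.

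AOA blocks enzymes that need pyridoxal phosphate (PLP), a cofactor made from vitamin B6, many of which move amino groups between amino acids and keto acids. Activated CD8+ T cells divide fast and make cytotoxic proteins, while genes of matrix proteins, epithelial junctions and neuronal tubulin are best known from fibroblasts, epithelia and neurons. T cells do carry some of the receptors and scaffolds such proteins bind, among them integrins and CD47.

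Total counts ran from 12881962 to 18934869 in the vehicle libraries and from 18696114 to 21997078 in the AOA libraries. The limit of 1.5 CPM thus equalled 19.3, 22.9 and 28.4 counts in vehicle 1, 2 and 3, and the limit of 3 CPM equalled 66.0, 56.1 and 58.6 counts in AOA 1, 2 and 3, so every value near a limit carries a sizeable counting error. Vehicle 2 and AOA 1 stood apart from the other libraries of their groups, with a chi-square per gene of 55.1 and 59.7 between vehicle 2 and the others against 10.02 between vehicle 1 and 3, and of 71.1 and 64.6 between AOA 1 and the others against 10.5 between AOA 2 and 3. The 13 counted CD8 T cell markers summed to 7050 to 7686 CPM with vehicle and 8463 to 9277 CPM with AOA, while 3 of them were called higher, 4 lower and 6 not at all and their median log2 fold change was -0.16. No selected gene was in the marker lists of B cells, myeloid cells, mast cells and basophils, erythroid cells and megakaryocytes, NK and innate lymphoid cells, CD4 and regulatory T cells, gamma delta T cells or thymocytes (3 to 23 counted genes each), nor in the lists of PLP enzymes and regulators (39 counted genes), the ATF4 stress response (27), cytotoxic effectors (29), inhibitory receptors (13), naive and memory T cells (20) or the Wnt, Notch and hedgehog pathways (20). Lists this short would hold fewer than 1 of the 37 genes at the share of the whole table (0.310%), so nothing is read from their absence there or from the other short lists below that held none.

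The 37 genes were a small share of the table, 0.310%. Of 582 genes below 1.5 CPM in every vehicle library they were 6.36%, and 355 of the 582 also stayed below 1.5 CPM in every AOA library. The mirror rule, with the limits exchanged between the groups, took 86 genes. In edgeR's quasi-likelihood fit across 11759 tested genes, which adjusts p-values by Benjamini-Hochberg, 26.2% of genes were called higher with AOA and 26.8% lower, and all 37 selected genes were called higher, from which nothing is read because the selection used the same contrast. Their log2 fold changes of AOA over vehicle had a median of 3.10, against -0.02 over all tested genes. They ran from 1.63 to 8.40 apart from Kirrel, which had 0 vehicle counts. Its fitted value depends on the tool (11.20 in edgeR, 10.44 in DESeq2 and 8.91 in limma voom) and is no bound, and with Kirrel at its bound of at least 255-fold, or 7.99 on the log2 scale, the median was still 3.10. Summed over the 37 genes, CPM was 26.3, 27.9 and 27.1 in vehicle 1, 2 and 3 and 238, 308 and 282 in AOA 1, 2 and 3.

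**Figure D1:**
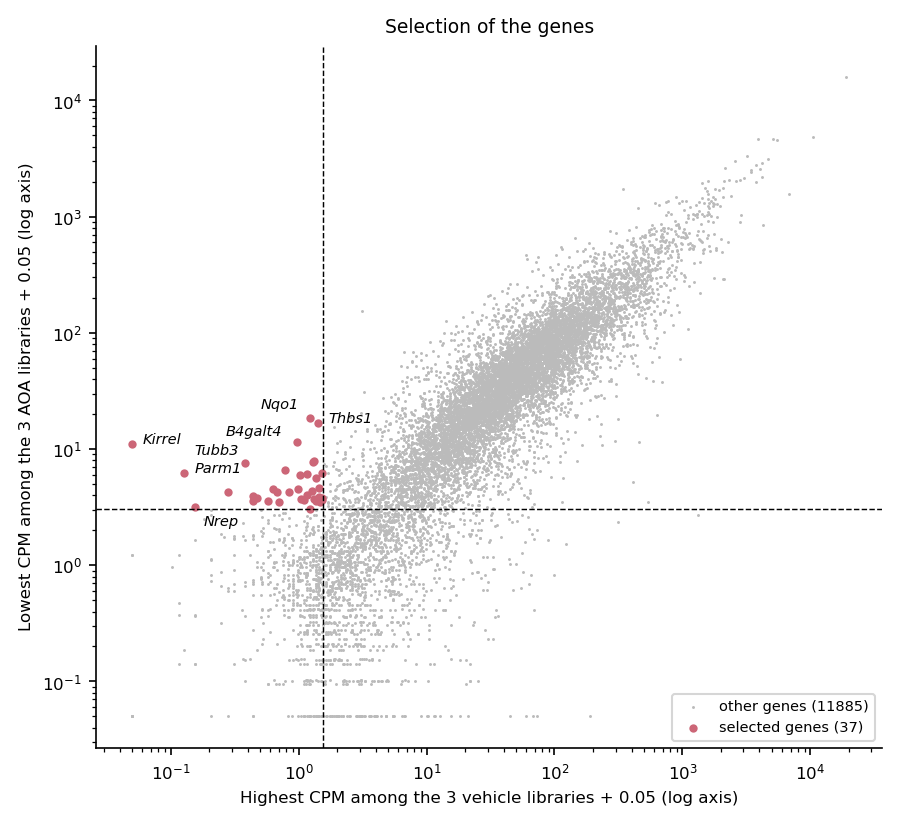
Each point is a gene, placed by its highest CPM among the 3 vehicle libraries (horizontal) and its lowest CPM among the 3 AOA libraries (vertical), both on log axes after adding 0.05, with dashed lines at the 2 limits. The 37 selected genes fill the upper left corner, with Kirrel at the far left at 0 in every vehicle library and Nqo1 and Thbs1 highest.

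Most selected genes remained low with AOA. Their mean AOA level had a median of 5.58 CPM (3.36 to 28.5), 23 of the 37 reached 5 CPM, and 6 reached 10 CPM. Per length (RPKM, the CPM divided by the gene length in kilobases, which allows levels of different genes to be set side by side), the median AOA level was 1.70 RPKM (0.445 to 13.4), which placed the median gene at the 18.8th percentile of the counted genes in AOA libraries and at the 1.93rd percentile in vehicle libraries. Nqo1 was the most abundant per length, at 13.4 ± 1.4 RPKM (SD, n = 3), followed by Dscc1 at 7.01, B4galt4 at 5.72, Chchd6 at 5.36 and Tubb3 at 5.26 RPKM. In bulk RNA a few cells with much of a transcript and many cells with little of it cannot be told apart. All 37 genes are annotated as protein coding, and their median length in the table was 3470 bases, against 2896.5 over all genes and 2679 over the 582 genes that were low with vehicle.

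Only 1 selected gene was in the cell cycle lists. The lists of Reactome Cell Cycle, of the S and G2/M phases, and of proliferation genes held 568 counted genes, 4.76% of the table, and 558 of these were at or above 1.5 CPM in every vehicle library, so they could not be selected. Of the 2 that were below 1.5 CPM in every vehicle library, 1 was selected, beside 6.36% of all such genes, and 2 genes are too few to compare the shares. The selected gene was Dscc1, a subunit of the clamp loader that ties DNA replication to sister chromatid cohesion. Dscc1 was at 1.01, 1.25 and 0.739 CPM in vehicle 1, 2 and 3 and at 10.9, 7.76 and 8.85 CPM in AOA 1, 2 and 3 (log2 fold change 3.20 ± 0.29, SE). Of the 6 other counted subunits of this loader, 5 were called higher with AOA, among them Chtf18 with a log2 fold change of 2.84 and Rfc5 with 2.49, and these were already well above the limit with vehicle. With replication, DNA repair and nucleotide genes added to the lists, 36 genes were still outside them.

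**Figure D2:**
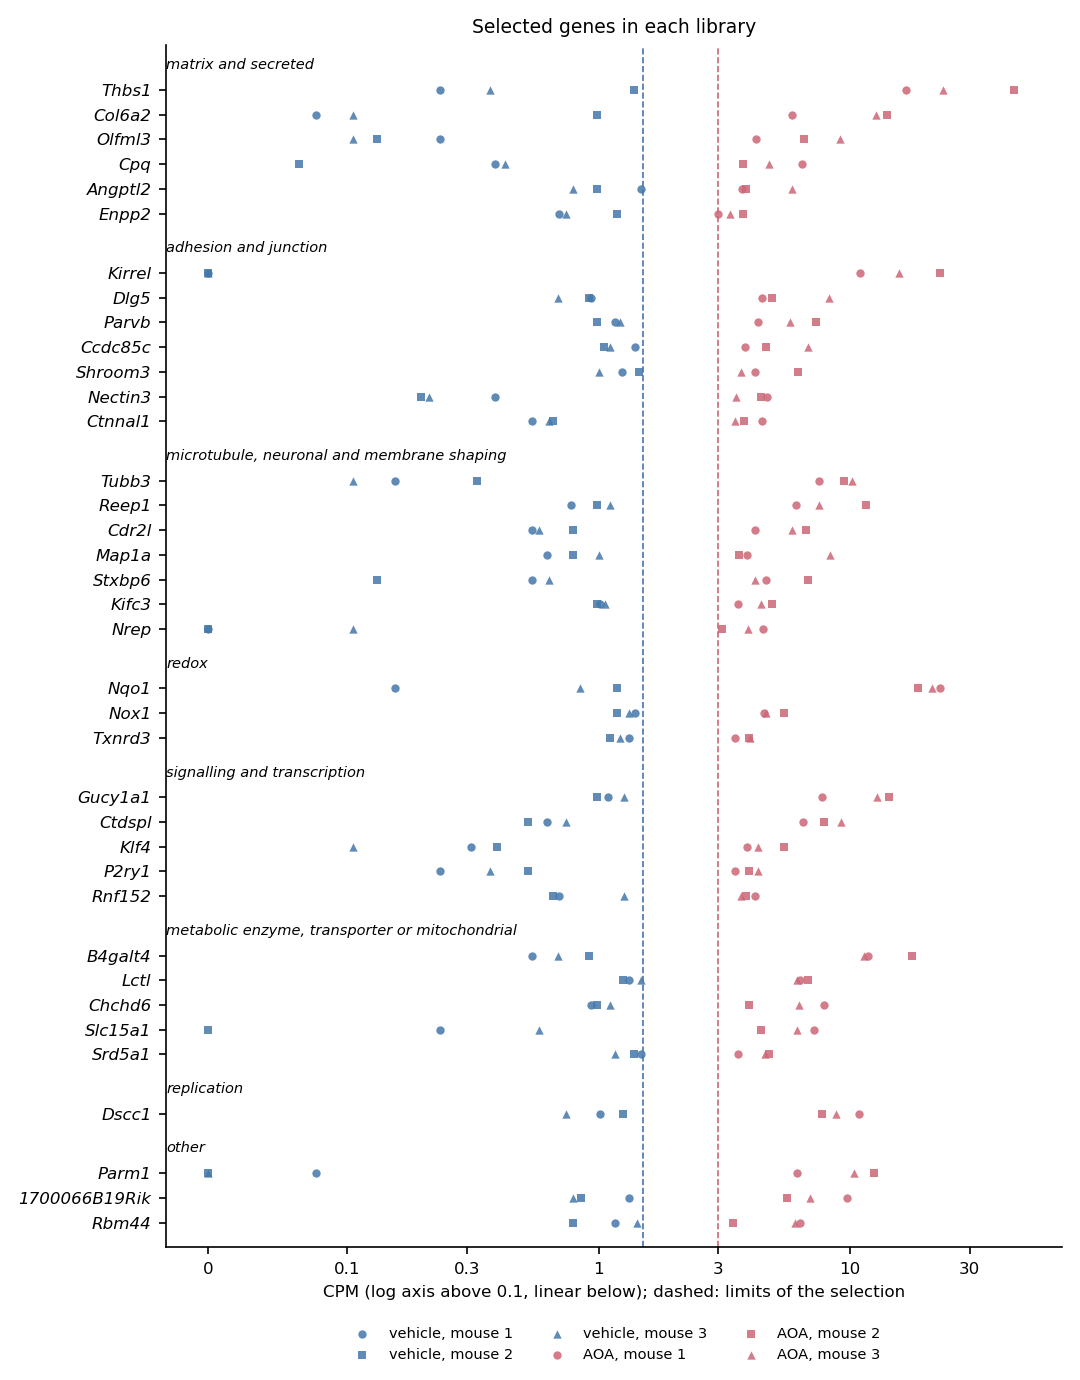
CPM of each of the 37 genes in the 6 libraries, with blue symbols for vehicle, red for AOA and a marker shape for each mouse, on an axis that is logarithmic above 0.1 CPM and linear below. All blue points lie left of 1.5 CPM and all red points right of 3 CPM by the rule, and the gap is widest for Kirrel, Parm1, Nrep and Tubb3.

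The stretch of DNA just before the start of a gene, its promoter, is shown for genes of several classes because RefSeq (build GRCm38.p6, the files' own mm10) holds such windows for 28 of the 37 genes. The 250 bases before the start are printed 5′ to 3′ on the strand of the gene. Capitals mark the letters GGGCGG (the GC box bound by Sp and Kruppel-like factors), TATAAA (the TATA box) and CCAAT, each in either orientation. Nqo1, the gene with the highest level per length, lies at chr8:107403206-107403455 on the minus strand. Olfml3 lies at chr3:103738002-103738251 and Klf4 at chr4:55532476-55532725, both on the minus strand. Chchd6 (chr6:89595653-89595902, minus strand) and Txnrd3 (chr6:89643738-89643987, plus strand) are shown because they are neighbours and were both selected.
Nqo1: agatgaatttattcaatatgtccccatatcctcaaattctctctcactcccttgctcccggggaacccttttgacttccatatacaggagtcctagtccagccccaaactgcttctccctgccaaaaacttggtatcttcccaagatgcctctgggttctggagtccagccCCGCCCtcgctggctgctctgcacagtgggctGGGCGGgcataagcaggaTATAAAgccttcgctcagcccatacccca
Olfml3: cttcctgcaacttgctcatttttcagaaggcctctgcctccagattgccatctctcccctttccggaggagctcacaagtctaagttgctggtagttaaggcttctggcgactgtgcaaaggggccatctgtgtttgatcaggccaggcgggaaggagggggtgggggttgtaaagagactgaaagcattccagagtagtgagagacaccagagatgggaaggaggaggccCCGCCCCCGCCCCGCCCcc
Klf4: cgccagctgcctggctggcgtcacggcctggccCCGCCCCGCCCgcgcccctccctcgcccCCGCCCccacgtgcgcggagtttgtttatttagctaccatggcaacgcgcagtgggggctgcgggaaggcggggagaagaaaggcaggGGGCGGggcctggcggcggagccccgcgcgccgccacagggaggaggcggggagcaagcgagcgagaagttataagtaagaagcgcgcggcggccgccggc
Chchd6: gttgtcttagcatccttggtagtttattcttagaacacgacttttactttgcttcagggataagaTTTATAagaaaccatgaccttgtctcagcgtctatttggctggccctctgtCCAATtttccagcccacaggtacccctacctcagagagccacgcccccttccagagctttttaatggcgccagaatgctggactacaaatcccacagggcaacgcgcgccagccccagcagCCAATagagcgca
Txnrd3: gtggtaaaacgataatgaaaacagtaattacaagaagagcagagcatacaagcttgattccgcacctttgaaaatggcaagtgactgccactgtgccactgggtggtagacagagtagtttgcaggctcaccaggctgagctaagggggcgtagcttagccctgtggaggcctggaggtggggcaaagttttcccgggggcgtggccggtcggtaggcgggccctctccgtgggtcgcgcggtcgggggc

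These promoters differ in build. Nqo1 has a TATA box that starts 29 bases before the start site and 2 GC boxes that start 79 and 47 bases before it. Olfml3 has 3 GC boxes within the last 19 bases and Klf4 has 4 that start 217, 212, 189 and 101 bases before its start. Chchd6 has 2 CCAAT motifs, a TATA box that starts 185 bases before the start and no GC box, while Txnrd3 has none of the 3 motifs in these 250 bases. Over whole windows of 300 bases, which add 50 bases after the start, shares are given per window because other counted genes had more windows each (1.27) than selected genes (1.11). A GC box was in 23 of the 31 windows of the 28 genes (74.2%), against 62.1% of 12116 windows of other counted genes and 52.1% of 486 windows of other genes that were low with vehicle. GC content was averaged over the windows of each gene. Its median over genes was 65.1% for the selected genes, 60.7% for other counted genes and 58.3% for the other low genes. The TATA box was found in 2 of 31 (6.45%, against 6.77% of other windows and 9.05% of those of other low genes) and CCAAT in 9 of 31 (29.0%, against 37.6% and 37.2%). TGACNNNGC, the core of the antioxidant response element, was in 2 of 31 (6.45%, against 14.4% and 12.8%), those of Angptl2 and Col6a2. The AP-1 letters TGANTCA, which can overlap TGACNNNGC, were in 0 of 31 (against 4.96% and 5.97%), as were the E2F letters TTTCCCGC (against 2.12% and 1.65%) and TTTGGCGC (against 0.982% and 0.823%). With 31 windows a share rests on few matches, and no difference in these shares was tested. Some of the stretches before the start also overlap annotated exons of the same or another gene, by all 250 bases for Srd5a1 and 210 for Kirrel. Of those printed above, Nqo1 overlaps exons by 1 base and Olfml3, Klf4, Chchd6 and Txnrd3 by 0. All motifs were sought on both strands but only within these windows, so sites farther from the start were not looked for. A match is a description of the letters, not of a bound site.

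The secreted and matrix proteins numbered 6 and held the most abundant gene of the selection by CPM. Thbs1 encodes thrombospondin 1, a secreted glycoprotein that binds CD47 and CD36. It was at 0.233, 1.38 and 0.370 CPM in vehicle 1, 2 and 3 and at 16.8, 45.1 and 23.5 CPM in AOA 1, 2 and 3 (log2 fold change 5.40 ± 0.56, SE). Without vehicle 2 the log2 fold change was 6.46. The lowest AOA library was 12.2 times the highest vehicle library, and within each group mouse 2 was highest. Of its relatives, Comp (thrombospondin 5) was called higher (log2 fold change 1.61), with 1.86, 1.31 and 1.37 CPM in vehicle 1, 2 and 3 and 4.41, 4.71 and 4.86 CPM in AOA 1, 2 and 3, and was not selected because of vehicle 1. Thbs3 was called lower (-3.76), as was the receptor Cd47 (-0.63).

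Col6a2, the alpha-2 chain of collagen VI, was at 0.0776, 0.984 and 0.106 CPM in vehicle 1, 2 and 3 and at 5.91, 14.01 and 12.7 CPM in AOA 1, 2 and 3 (log2 fold change 4.78 ± 0.67, SE). Vehicle 2 was again the highest vehicle library, and without it the log2 fold change was 6.74. It was the one collagen VI chain in the table, and the other chains were not analysed here. Col6a2 was also the one selected gene in the list of stromal, endothelial and epithelial markers, where 9 genes were counted and 8 tested. Of the 7 tested besides Col6a2, Vim was called higher, a gene that lymphocytes also use, and Kdr, Pdgfrb and Pecam1 were called lower. The whole list summed to 1418 to 1646 CPM with vehicle and 1815 to 2278 CPM with AOA, of which Vim alone gave 1298 to 1492 and 1763 to 2196 CPM. Without Vim the sum was 119 to 154 CPM with vehicle and 52.6 to 82.5 CPM with AOA. The part of other cell types in the Col6a2 values was not tested.

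Olfml3, a secreted protein with an olfactomedin domain, was at 0.233, 0.131 and 0.106 CPM in vehicle 1, 2 and 3 and at 4.23, 6.58 and 9.11 CPM in AOA 1, 2 and 3 (log2 fold change 5.38 ± 0.47, SE). All 3 vehicle libraries of Olfml3 were low, and AOA 1 was the lowest of the AOA libraries. Cpq, a secreted carboxypeptidase, had an AOA mean of 4.99 ± 1.37 CPM (SD, n = 3). Angptl2, an angiopoietin-like glycoprotein, had 1.47, 0.984 and 0.792 CPM in vehicle 1, 2 and 3 and 3.73, 3.85 and 5.88 CPM in AOA 1, 2 and 3. Enpp2, or autotaxin, which makes lysophosphatidic acid outside the cell, had 0.699, 1.18 and 0.739 CPM in vehicle 1, 2 and 3 and 3.00, 3.74 and 3.33 CPM in AOA 1, 2 and 3, the lowest AOA mean of all 37 genes in CPM (3.36).

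The adhesion and junction class had 7 genes. Kirrel encodes an immunoglobulin-domain adhesion protein known from the slit diaphragm of the kidney. It had 0 counts in all 3 vehicle libraries and 11.0, 22.9 and 15.8 CPM in AOA 1, 2 and 3, or 978 counts over the group. Against a floor of 3 counts over the vehicle group (0.0637 CPM) it was at least 255-fold higher with AOA, which covers counting error only. It was the one selected gene at 0 in every vehicle library, out of 8 such genes among the 582.

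Nectin3, which joins cells through other nectins, had 0.388, 0.197 and 0.211 CPM in vehicle 1, 2 and 3 and 4.68, 4.44 and 3.53 CPM in AOA 1, 2 and 3 (log2 fold change 3.98 ± 0.39, SE). Its relative Pvr was called lower (log2 fold change -0.87). Parvb (beta-parvin), a focal adhesion protein that binds integrin-linked kinase, had an AOA mean of 5.81 ± 1.505 CPM (SD, n = 3), while Ilk itself and Parvg, the parvin of blood cells, were expressed with vehicle and called higher by 0.49 and 0.38 on the log2 scale. Lims1, an adaptor of the same complex, was called lower (log2 fold change -0.42). The scaffold Dlg5, the junction proteins Ccdc85c and Shroom3, and the alpha-catenin relative Ctnnal1 had AOA means of 5.89, 5.09, 4.69 and 3.91 CPM. Of the selected genes 13 have any Reactome annotation, and 5 sets held 3 or more of them. Signal Transduction held 4 (24.0% of all annotated counted genes are in this set), and Metabolism (24.5%), Metabolism of proteins (11.5%), Hemostasis (6.66%) and Cell-Cell communication (1.56%) held 3 each, the last with Kirrel, Nectin3 and Parvb. Sets overlap, and counts of 3 or 4 genes are too few to read as a property of the selection.

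The class of microtubule, neuronal and membrane-shaping proteins held 7 genes, and Tubb3 stood highest. Tubb3, the beta-tubulin used as a marker of neurons, was at 0.155, 0.328 and 0.106 CPM in vehicle 1, 2 and 3 and at 7.55, 9.47 and 10.2 CPM in AOA 1, 2 and 3 (log2 fold change 5.49 ± 0.38, SE). The AOA libraries lay close together for this gene, within 1.35-fold, and the log2 fold change was 6.08 without vehicle 2. Of the 6 other beta-tubulins counted, Tubb4b (log2 fold change 2.23), Tubb2a (1.03) and Tubb5 (0.89) were called higher and Tubb6 (-2.23) and Tubb4a (-1.49) lower. Tubb5 was between 905 and 1592 CPM in vehicle libraries. Beta-tubulins are close in sequence, so reads shared between them are an uncertainty of these counts.

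Map1a, a microtubule-associated protein of neurons, was at 0.621, 0.787 and 1.00 CPM in vehicle 1, 2 and 3 and at 3.91, 3.64 and 8.34 CPM in AOA 1, 2 and 3. AOA 3 alone was high. Kifc3, a kinesin that moves towards microtubule minus ends, was at 1.01, 0.984 and 1.06 CPM in vehicle 1, 2 and 3 and at 3.59, 4.92 and 4.45 CPM in AOA 1, 2 and 3. These 3 genes were the selected ones in the list of 60 counted microtubule and centriole genes, beside 0.310% of the whole table. In that list 9 genes were below 1.5 CPM in every vehicle library, and 6.36% of all such genes were selected. A count of 3 is too few to read as a property of the selection. Of the 56 others tested 19 were called higher and 15 lower, beside 26.2% and 26.8% of all tested genes. The median of those 56 was -0.06 on the log2 scale.

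Reep1, which shapes the endoplasmic reticulum, was at 0.776, 0.984 and 1.11 CPM in vehicle 1, 2 and 3 and at 6.09, 11.6 and 7.57 CPM in AOA 1, 2 and 3 (log2 fold change 3.09 ± 0.33, SE). Nrep, named for neuronal regeneration, had 0, 0 and 0.106 CPM in vehicle 1, 2 and 3 and 4.50, 3.10 and 3.94 CPM in AOA 1, 2 and 3. With 2 vehicle counts against 234 AOA counts the ratio of its pooled CPM was 91.4 (95% interval 25.0 to 759, counting error only). Stxbp6, which binds SNARE proteins of vesicle fusion, and Cdr2l, a relative of a cerebellar degeneration antigen, had AOA means of 5.23 and 5.58 CPM. None of the selected genes was in the list of 34 counted neuronal and synaptic genes. Of these 34, 6 were called higher and 15 lower, beside 26.2% and 26.8% of all tested genes. Their median on the log2 scale was -0.62.

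The redox enzymes numbered 3. Nqo1, a quinone reductase and a textbook target of the transcription factor NRF2, was at 0.155, 1.18 and 0.845 CPM in vehicle 1, 2 and 3 and at 22.8, 18.6 and 21.2 CPM in AOA 1, 2 and 3 (log2 fold change 4.77 ± 0.41, SE). Its AOA libraries agreed within 1.23-fold. Among the 27 other counted genes of the NRF2 pathway, 11 were called higher and 6 lower, beside 26.2% and 26.8% of all tested genes. That list was made after values had been seen. Prdx1 (log2 fold change 1.94) and Txn1 (1.46) were called higher, whereas Osgin1 (-6.50), Hmox1 (-2.59) and Srxn1 (-2.08) were called lower, so the genes of that pathway differed in direction.

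Txnrd3, a thioredoxin reductase that also acts on glutathione, had the smallest log2 fold change of all 37 genes (1.63 ± 0.28, SE). It was at 1.32, 1.12 and 1.21 CPM in vehicle 1, 2 and 3 and at 3.50, 3.96 and 3.99 CPM in AOA 1, 2 and 3. The cytosolic enzyme Txnrd1, which was already at 95.2 to 132 CPM with vehicle, was called higher by 0.96, and the mitochondrial Txnrd2 was not called (-0.20). Nox1, a superoxide-producing oxidase, had an AOA mean of 4.89 ± 0.50 CPM (SD, n = 3). Its exons share 399 bases (12.1% of its own) with those of Cstf2 on the opposite strand, a gene at 131 CPM with AOA and itself higher by 1.45 on the log2 scale. Libraries were stranded, but the strand setting of the counting is not given, so the part that reads of Cstf2 have in the Nox1 counts was not tested.

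Of the 5 signalling and transcription genes, Gucy1a1 was the most abundant. It encodes the alpha-1 subunit of the nitric oxide receptor guanylyl cyclase, which works as a dimer with the beta-1 subunit. Gucy1a1 was at 1.09, 0.984 and 1.27 CPM in vehicle 1, 2 and 3 and at 7.77, 14.4 and 12.8 CPM in AOA 1, 2 and 3 (log2 fold change 3.35 ± 0.31, SE). Its partner Gucy1b1 had 0.0776, 0.459 and 0.211 CPM in vehicle 1, 2 and 3 and 3.64, 4.49 and 2.97 CPM in AOA 1, 2 and 3, with a log2 fold change of 3.82 ± 0.47 (SE). Both subunits of the dimer were low with vehicle and higher with AOA, and Gucy1b1 missed the selection only by AOA 3 being just under 3 CPM.

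Klf4, a transcription factor known as a brake on CD8+ T cell division, was at 0.311, 0.394 and 0.106 CPM in vehicle 1, 2 and 3 and at 3.91, 5.46 and 4.30 CPM in AOA 1, 2 and 3 (log2 fold change 4.08 ± 0.43, SE). It was the one selected gene among 24 counted transcription factors of development. Of the 20 others tested 5 were called higher and 7 lower, beside 26.2% and 26.8% of all tested genes. Of the 11 other Kruppel-like factors Klf6 was called higher (0.57) and Klf7, Klf11 and Klf13 lower, and Klf2, the one tied to T cell quiescence, was not called (0.43).

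Ctdspl, a small phosphatase that acts on RNA polymerase II and the retinoblastoma protein, was at 0.621, 0.525 and 0.739 CPM in vehicle 1, 2 and 3 and at 6.50, 7.86 and 9.21 CPM in AOA 1, 2 and 3 (log2 fold change 3.60 ± 0.30, SE). Of its relatives, Ctdspl2 was called higher (0.69) and Ctdsp2 lower (-0.99). P2ry1, a receptor for ADP, had an AOA mean of 3.92 ± 0.40 CPM (SD, n = 3), with a log2 fold change of 3.33, while the other P2Y receptors P2ry10 (-1.58), P2ry12 (-3.78) and P2ry13 (-4.56) were called lower and P2ry14 was not called (0.08). An antisense RNA that is not in the table shares 23.1% of the P2ry1 exon bases. Rnf152, a ubiquitin ligase of lysosomes, had an AOA mean of 3.91 ± 0.25 CPM.

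**Figure D3:**
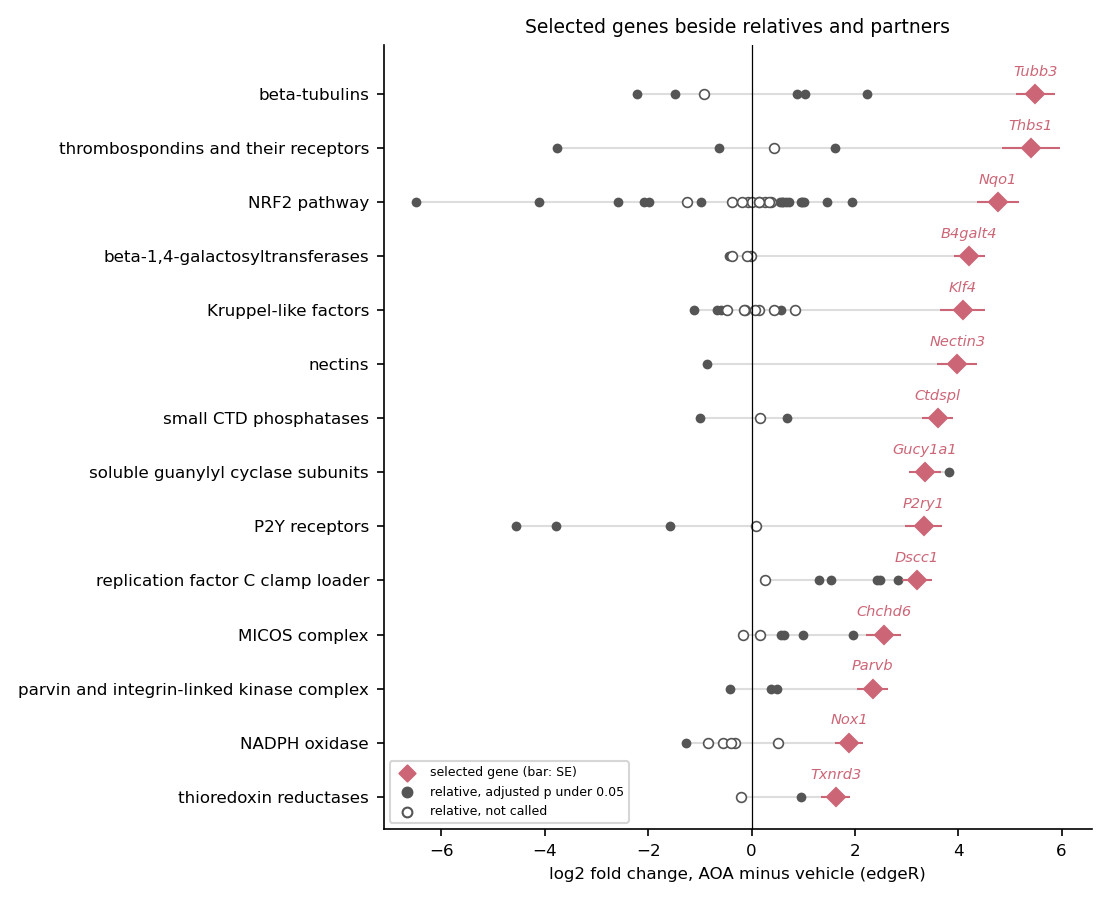
log2 fold changes of AOA over vehicle from the edgeR fit, with selected genes as red diamonds (bars are SE) beside family members and partners from lists made after values had been seen, filled where the adjusted p was under 0.05 and open where not called. Gucy1b1 (3.82) lies beside its selected partner, the other clamp loader subunits run from 0.27 (Chtf8, not called) to 2.84 (Chtf18), and the other P2Y receptors, beta-1,4-galactosyltransferases and nectins lie at or below 0.1.

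Metabolic enzymes, a transporter and a mitochondrial protein made up a class of 5. B4galt4, a Golgi galactosyltransferase, was at 0.543, 0.918 and 0.687 CPM in vehicle 1, 2 and 3 and at 11.8, 17.7 and 11.4 CPM in AOA 1, 2 and 3 (log2 fold change 4.21 ± 0.31, SE). It was the 1 of 5 counted beta-1,4-galactosyltransferases called higher, and B4galt1 was called lower (-0.43). Slc15a1, the intestinal peptide transporter, was at 0.233, 0 and 0.581 CPM in vehicle 1, 2 and 3 and at 7.18, 4.44 and 6.14 CPM in AOA 1, 2 and 3 (log2 fold change 4.30 ± 0.64, SE). Its log2 fold change was 5.72 without vehicle 3 and 3.75 without vehicle 2. Chchd6, a subunit of the MICOS complex that holds the folds of the inner mitochondrial membrane, had an AOA mean of 6.04 ± 1.97 CPM (SD, n = 3). Of the 6 other MICOS genes counted, 4 were called higher and none lower, among them Apoo (1.96) and Micos10 (1.00).

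Srd5a1, which reduces steroids such as testosterone, had 1.47, 1.38 and 1.16 CPM in vehicle 1, 2 and 3 and 3.59, 4.76 and 4.60 CPM in AOA 1, 2 and 3. Lctl, a member of the klotho family, had 1.32, 1.25 and 1.48 CPM in vehicle 1, 2 and 3 and 6.32, 6.79 and 6.19 CPM in AOA 1, 2 and 3, and was closest to the vehicle limit. Exons of Lctl share 254 bases (9.75% of its own) with Zwilch, a kinetochore gene on the opposite strand that was at 54.1 CPM with AOA and higher by 2.70, and the part of Zwilch reads in the Lctl counts was not tested. Exons of Map1a overlap Ppip5k1, which was not called (log2 fold change -0.20).

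The remaining 3 genes fit no class above. Parm1, a mucin-like membrane protein, was at 0.0776, 0 and 0 CPM in vehicle 1, 2 and 3 and at 6.14, 12.5 and 10.4 CPM in AOA 1, 2 and 3. With 1 vehicle count against 572 AOA counts, the ratio of its pooled CPM was 447 (95% interval 79.9 to 17681, counting error only). The uncharacterized gene 1700066B19Rik was at 1.32, 0.853 and 0.792 CPM in vehicle 1, 2 and 3 and at 9.73, 5.62 and 6.96 CPM in AOA 1, 2 and 3. Rbm44, an RNA-binding protein of germ cells, had 1.16, 0.787 and 1.43 CPM in vehicle 1, 2 and 3 and 6.32, 3.42 and 6.04 CPM in AOA 1, 2 and 3. No selected gene was in the list of 23 counted genes of meiosis and the germ line. Of the 20 tested, 4 were called higher and 7 lower, beside 26.2% and 26.8% of all tested genes.

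Genes near the limits show how sharp the selection was. Just inside the vehicle limit were Lctl (1.48 CPM in its highest vehicle library), Srd5a1 (1.47) and Angptl2 (1.47), and just inside the AOA limit were Enpp2 (3.00 CPM in its lowest AOA library), Nrep (3.10) and Rbm44 (3.42). Just outside the vehicle limit were Dyrk4 (1.53), 6720489N17Rik (1.57) and Fsbp (1.58), and just outside the AOA limit were Slpi (2.97), Gucy1b1 (2.97) and Tnfrsf11a (2.94). Dyrk4 had 14.3, 7.38 and 9.004 CPM in AOA 1, 2 and 3 and 0.388, 0.459 and 1.53 CPM in vehicle 1, 2 and 3. Fsbp had 9.82, 7.11 and 11.1 CPM in AOA 1, 2 and 3 and 6720489N17Rik had 7.73, 3.85 and 5.68 CPM, with 0.776, 1.05 and 1.58 CPM and 0.932, 1.57 and 1.48 CPM in vehicle 1, 2 and 3. Both genes were over the limit in 1 vehicle library only. Slpi, a secreted protease inhibitor, had 0.699, 0.459 and 1.32 CPM in vehicle 1, 2 and 3 and 4.41, 3.53 and 2.97 CPM in AOA 1, 2 and 3. Tnfrsf11a, the receptor RANK, had 0.155, 0.0656 and 0 CPM in vehicle 1, 2 and 3 and 3.09, 2.94 and 3.63 CPM in AOA 1, 2 and 3. Without vehicle 2 the rule took 61 genes rather than 37 and all 37 were among them, so the level in that 1 library kept the others out, and without AOA 1 it took 40.

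Among the AOA libraries the selected genes did not vary as 1 block. AOA 1 was the lowest of the 3 libraries for 21 of the 37 genes, against 36.6% of all genes called higher, and AOA 2 was the highest for 17, against 25.2%. Thbs1, Col6a2, Olfml3, Kirrel, Gucy1a1 and Parm1 were lowest in AOA 1, whereas Chchd6, Cpq, Slc15a1, 1700066B19Rik and Rbm44 were highest there and lowest in AOA 2. The highest AOA library exceeded the lowest by a median of 1.60-fold (1.10 to 2.68) and by more than 2-fold for 6 genes. In 11 genes the same mouse was highest in both groups, against 32.2% of genes called higher.

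**Figure D4:**
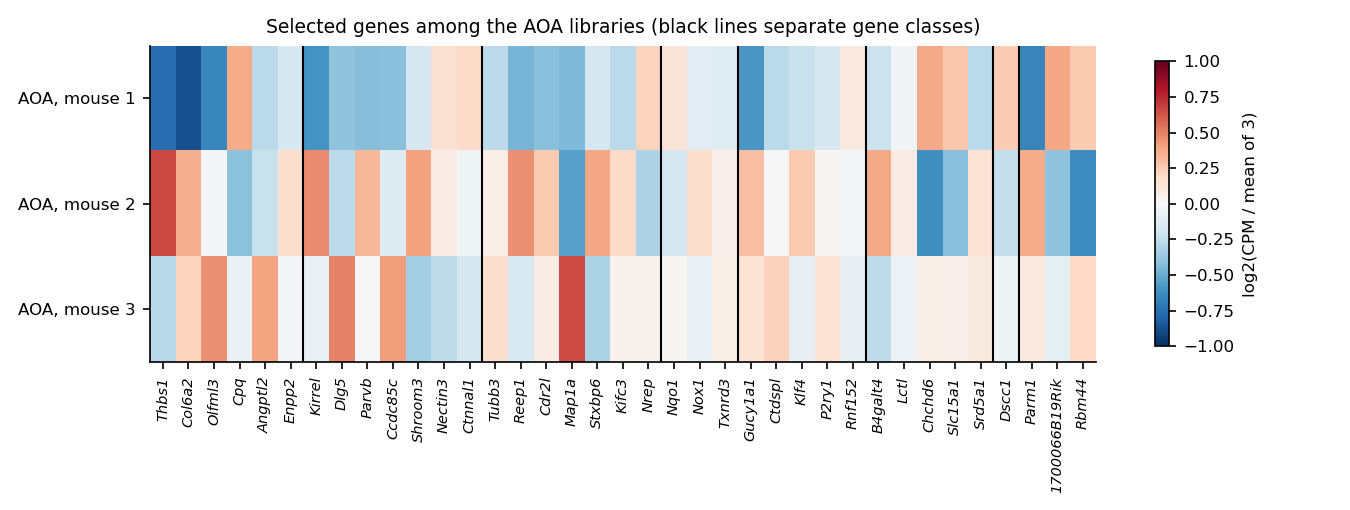
Level of each selected gene in the 3 AOA libraries as the log2 of its CPM over the mean of the 3, red above and blue below the mean, with genes in the classes of the text separated by black lines. The row of mouse 1 is blue for Thbs1, Col6a2, Kirrel, Gucy1a1 and Parm1 and red for Chchd6, Cpq and 1700066B19Rik.

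The selected genes were spread over 17 chromosomes with at most 4 on any 1. Among them only Chchd6 and Txnrd3 had no counted gene between them. These 2 genes lie 48336 bases apart on chromosome 6 and are transcribed away from each other. On its other side Chchd6 has a closer counted neighbour, Plxna1, at 20526 bases (log2 fold change 1.09, called higher). Enpp2 and Dscc1 on chromosome 15 were 123207 bases apart with 1 counted gene between them. Next to Enpp2, the matricellular gene Ccn3 had 1.47, 7.02 and 3.75 CPM in vehicle 1, 2 and 3 and 51.0, 68.1 and 54.7 CPM in AOA 1, 2 and 3 (log2 fold change 3.81). Gucy1b1 lies 17738 bases from Gucy1a1. Of the 71 distinct nearest counted neighbours that were not selected themselves, 21 (29.6%) were called higher, 17 lower and 33 not at all, and their median log2 fold change was 0.13, beside the 26.2% of all tested genes called higher.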

How the data were processed

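RNA of CD8+ T cells from 3 mice, each with a vehicle and an AOA culture, was sequenced as stranded, paired-end libraries. Per the labels, the authors used bcl2fastq, STAR, featureCounts and DESeq2 with the build mm10, and deposited 1 table of raw counts, made from reads that mapped uniquely, in which each gene has its Entrez number, symbol and length. No source used here gives the annotation, the strand setting or a filter on genes. The number of per-sample columns without a sample was 0.

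CPM was the deposited count over the column total, and RPKM used the deposited length. Groups came from the labels. Counts were fitted in R 4.3.3 with edgeR 4.0.16 (TMM, filterByExpr with a minimum count of 10, robust quasi-likelihood test, Benjamini-Hochberg adjustment, threshold 0.05), and a gene past the threshold is called. The fit was tested on simulated data. With 3 cultures per group, p-values measure the spread between these cultures.

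The members and the lists were chosen with earlier results of these data known. Classes of the genes and the lists of relatives and partners were made after their values had been seen. Values in every library are given for the 12 most abundant genes outside the cell cycle lists, the 10 with the largest log2 fold change, genes in the cell cycle lists, genes in any other list and the 3 genes nearest each limit on either side, and for a few others chosen after their values were seen. Reactome sets were those for mouse in a Bioconductor package, and phase lists came from Seurat 5.3.0. Exon overlaps and neighbours came from GENCODE vM21 on GRCm38. The result of 1 gene is not reported here.

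The mouse numbers in the labels pair the libraries. Deviations from the group means correlated within mice 1, 2 and 3 with r of 0.0868, 0.189 and 0.194 across 11759 genes, which are not independent replicates. Alternatives were other scalings, limits, group means, thinned counts, each library left out, DESeq2 1.42.0, voom of limma 3.58.1, no low-count filter and the mouse as a block.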

Additional observations from a re-analysis of the deposited data

How the results depend on the processing

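The count of 37 genes moves with the limits. It was 17 with a vehicle limit of 1 CPM, 13 with an AOA limit of 5 CPM and 91 when group means had to pass in place of every library, and the count outside the cell cycle lists was then 17, 12 and 90. Leaving out 1 library at a time gave 39 to 61 genes, 38 to 60 of them outside the cell cycle lists, with the highest values without vehicle 2. TMM library sizes gave 37 genes, median-of-ratios sizes 36 (without Lctl), and counts thinned to the smallest total 43, which held 35 of the 37 and lacked Enpp2 and Shroom3. All 37 genes were called higher in every fit tried, which the selection on the same contrast favours. With the mouse as a replicate block, 37 of the 37 and 3126 of all genes were called higher, against 3086 without it, and no call of a selected gene changed. Leaving out 1 vehicle library moved the fold change (not its log2) of Thbs1, Col6a2, Tubb3, Slc15a1, Parm1 and Nrep by more than 1.5 times. On the log2 scale Parm1 came to 10.52 without vehicle 1 and Nrep to 9.10 without vehicle 3, which held all their vehicle counts, and the values of the others are given above. Leaving out 1 library gave 2519 to 3499 genes called higher among all genes, and a required log2 fold change of at least 1 gave 1418. At limits of 19.3 to 28.4 counts with vehicle, genes within counting error of a limit may fall on either side of it.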
